A study of Homo sapiens with 11 samples.

Results

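NLRP7 and NLRP2, neighbouring genes of the NLR family that are active in the egg and the early embryo, were examined over 11 bead arrays of NT2D1 cells. The members were all probes that the platform annotation assigns to either symbol, which gave 4 probes of 2 genes among 48803 probes and 18852 named genes. NLRP7 had 3 probes and NLRP2 had 1. The pair was chosen with its values on these arrays known, both between sample sets and with doxycycline, so those differences are given as descriptions with no p-value.

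NT2D1 is a human embryonal carcinoma line, a malignant counterpart of undifferentiated embryo cells. All samples carried the tetracycline repressor TetR3 and a doxycycline-controlled shRNA that targets L1TD1, which encodes an RNA-binding protein found in pluripotent cells, and all were collected on day 6. The dox+ samples were treated with doxycycline, which switches the shRNA on, and the dox- samples were not. The design text speaks of 6 clones, each sampled in both states, with 1 sample left out by the submitters. Sample titles begin with 5 or 1, which the file headers match to columns named shRNA5 and shRNA1. There were 3 prefix 5 dox+ arrays (samples 4, 5 and 6), 2 prefix 5 dox- arrays (samples 4 and 5), 3 prefix 1 dox+ arrays and 3 prefix 1 dox- arrays (samples 1, 2 and 3 each). No sample number occurs under both prefixes, so a difference between the shRNA vectors and a difference between the clones that carry them cannot be told apart.

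NLR proteins are cytoplasmic sensors and scaffolds built around a nucleotide-binding NACHT domain and leucine-rich repeats, and NLRP members add a pyrin domain that can recruit the adaptor PYCARD. NLRP7 and NLRP2 belong to a subset better known from reproduction than from immunity: inherited loss of NLRP7 in the mother causes recurrent hydatidiform mole, in which maternal imprints are missing, and NLRP2 has been linked to imprinting defects and early embryonic arrest. Mice have Nlrp2 but no Nlrp7.

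In RefSeq on GRCh38.p14 both genes lie on chromosome 19. NLRP7 spans chr19:54923515-54966243 on the minus strand, and NLRP2 spans chr19:54965284-55001138 on the plus strand. They point away from each other and their annotated spans share 960 bases. The promoter windows, 250 bases before to 50 after a start, are shown because the genes differed in their pattern over the arrays although they share a locus. Capitals mark CCAAT or its complement ATTGG. The NLRP7 window is chr19:54947481-54947780 (minus strand) and the NLRP2 window is chr19:54965034-54965333 (plus strand). The NLRP7 window lies inside the NLRP7 span, which passes it by 18463 bases, and 17253 bases separate it from the NLRP2 window.
NLRP7: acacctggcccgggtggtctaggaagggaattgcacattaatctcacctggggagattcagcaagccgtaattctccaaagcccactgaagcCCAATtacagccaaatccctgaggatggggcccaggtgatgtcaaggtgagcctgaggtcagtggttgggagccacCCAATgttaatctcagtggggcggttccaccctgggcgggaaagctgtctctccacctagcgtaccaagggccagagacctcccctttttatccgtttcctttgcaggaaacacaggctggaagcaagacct
NLRP2: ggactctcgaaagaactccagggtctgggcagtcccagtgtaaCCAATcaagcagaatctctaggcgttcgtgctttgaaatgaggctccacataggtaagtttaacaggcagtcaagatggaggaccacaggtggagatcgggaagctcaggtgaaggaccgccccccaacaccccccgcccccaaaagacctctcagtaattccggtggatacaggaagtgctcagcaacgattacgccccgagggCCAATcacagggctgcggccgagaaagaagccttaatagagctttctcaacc
Each window held 2 CCAAT matches on either strand, and 34.6% of 35116 RefSeq promoters of the same length held at least 1. Neither held the octamer ATGCAAAT or TATAAA on either strand, which were found in 1.77% and 11.5% of promoters. The NLRP7 window had 6 CG dinucleotides and the NLRP2 window had 12, against a median of 14 over all promoters. A second NLRP2 window, starting 1090 bases further along, was identical at 297 of 300 positions.

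NLRP7 was above background on every prefix 5 array and on few prefix 1 arrays. Levels are log2 intensities after background correction, addition of 16 and quantile normalization, and above background means a detection p under 0.01. With ILMN_1652366, the brightest of its 3 probes, NLRP7 measured 7.20, 6.92 and 7.66 on the prefix 5 dox+ arrays of samples 4, 5 and 6 and 7.77 and 7.26 on the prefix 5 dox- arrays of samples 4 and 5. It measured 5.93, 5.65 and 6.34 on the prefix 1 dox+ arrays of samples 1, 2 and 3 and 5.08, 5.33 and 5.21 on their dox- arrays. The lowest prefix 5 array stood above the highest prefix 1 array, and the sets did not overlap. The probe was above background on 5 of 5 prefix 5 arrays and on 2 of 6 prefix 1 arrays, the dox+ arrays of samples 1 and 3. The means were 7.36 ± 0.35 in prefix 5 (SD, n = 5) and 5.59 ± 0.48 in prefix 1 (SD, n = 6). The fitted log2 difference, prefix 5 minus prefix 1 with dox as a covariate, was 1.74 ± 0.22 (SE). It takes in the 4 prefix 1 arrays that were not above background, so its size is a description only. In bulk RNA, fewer expressing cells and less RNA per cell cannot be told apart.

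The other NLRP7 probes were dimmer and ran the same way. ILMN_1658632 measured 6.51, 6.11 and 7.18 on the prefix 5 dox+ arrays and 7.01 and 6.05 on the prefix 5 dox- arrays. On prefix 1 arrays it measured 5.41, 5.13 and 4.89 with dox and 4.82, 4.97 and 5.71 without. It was above background on 5 of 5 prefix 5 arrays and on 1 of 6 prefix 1 arrays, the dox- array of sample 3, and the sets again did not overlap. Its log2 difference was 1.42 ± 0.23 (SE), with 5 prefix 1 arrays not above background. ILMN_1798063 ranged between 5.74 and 6.31 with a median of 5.96 on prefix 5 arrays, and between 4.47 and 5.21 with a median of 4.69 on prefix 1 arrays. It was above background on 5 of 5 prefix 5 arrays and on 0 of 6 prefix 1 arrays, so it passed the filter (above background on at least 5 arrays) through prefix 5 alone. Its level in prefix 1 is a bound, and prefix 5 was at least 1.26-fold higher. Here and below such a bound sets the mean of the brighter arrays against the lowest signal among probes above background on each dim array, or the dim probe's own signal where that is higher. For each of the 3 NLRP7 probes every prefix 5 array exceeded every prefix 1 array, as was the case for 0.795% of kept probes; this contrast was part of the choice of genes, so nothing is read from that share.

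**Figure D1:**
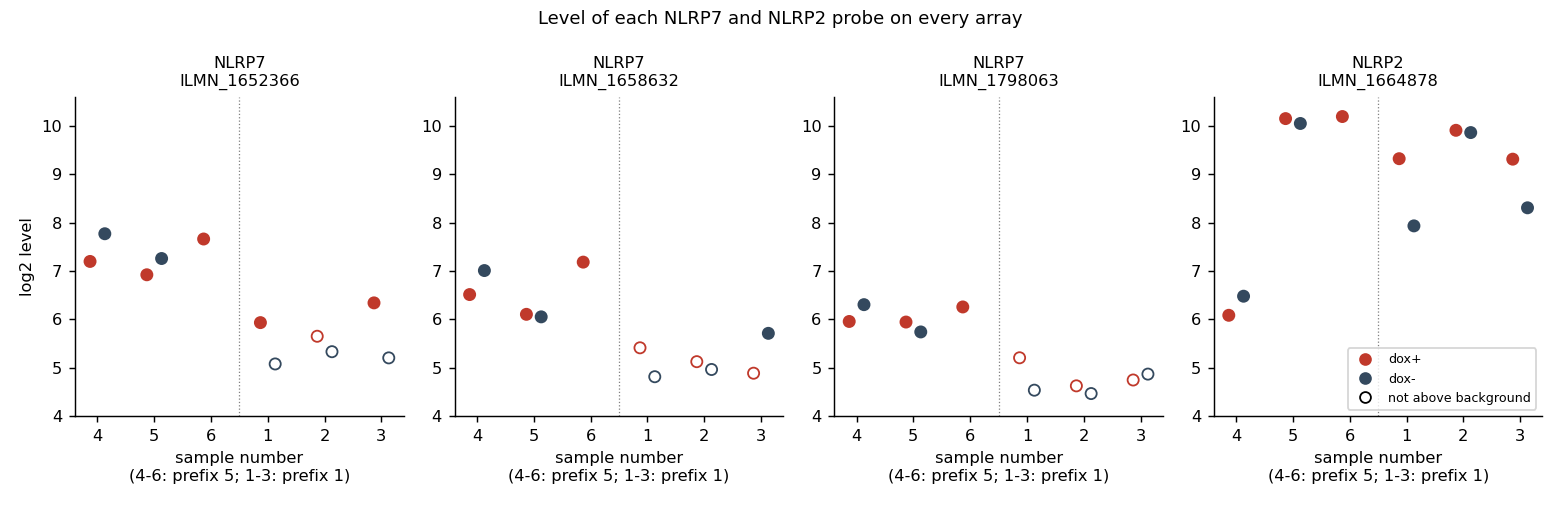
Log2 level of each NLRP7 and NLRP2 probe on the 11 arrays, prefix 5 left of prefix 1 and dox+ left of dox-, with filled points above background and open points not. All NLRP7 points of prefix 5 lie above those of prefix 1, while the NLRP2 points of sample 4, at 6.09 and 6.48, lie below all the others.

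The prefix difference of NLRP7 was present in both dox states. Among dox+ arrays ILMN_1652366 averaged 7.26 ± 0.37 in prefix 5 and 5.98 ± 0.35 in prefix 1 (SD, n = 3 each), a log2 difference of 1.28 ± 0.23 (SE). Among dox- arrays it averaged 7.51 ± 0.36 in prefix 5 (SD, n = 2) and 5.21 ± 0.13 in prefix 1 (SD, n = 3), where it was above background on 0 of 3 arrays, so prefix 5 was at least 3.50-fold higher. For this probe the order of the 4 sets was therefore prefix 5 dox-, prefix 5 dox+, prefix 1 dox+ and prefix 1 dox-, and of these neighbours only the prefix 5 sets overlapped. The means of ILMN_1658632 were 6.60 in prefix 5 dox+, 6.53 in prefix 5 dox-, 5.14 in prefix 1 dox+ and 5.17 in prefix 1 dox-. ILMN_1798063 averaged 6.05 in prefix 5 dox+ and 6.02 in prefix 5 dox-, so those probes did not keep the order of the dox states.

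**Figure D2:**
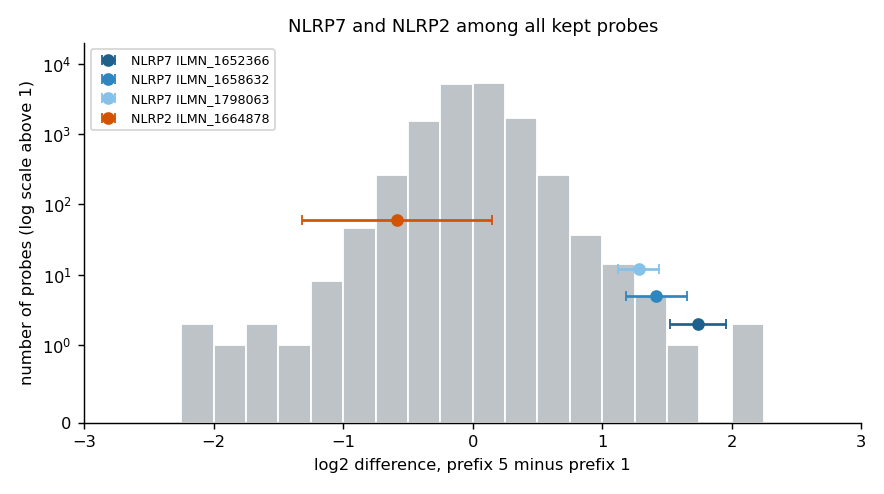
Histogram of the log2 difference, prefix 5 minus prefix 1, over all kept probes, with the 4 member probes marked at heights chosen for legibility with their SE as bars. The NLRP7 probes lie at 1.28 to 1.74 in the right tail, where 1.28 is for ILMN_1798063, above background on 0 of 6 prefix 1 arrays (at least 1.26-fold), and NLRP2 at -0.58, with the median of all probes at 0.0045.

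NLRP2 was above background on all 11 arrays and was lowest in sample 4. Its probe, ILMN_1664878, measured 6.09, 10.15 and 10.19 on the prefix 5 dox+ arrays of samples 4, 5 and 6 and 6.48 and 10.05 on the prefix 5 dox- arrays of samples 4 and 5. On prefix 1 arrays it measured 9.32, 9.90 and 9.31 with dox and 7.93, 9.86 and 8.30 without. Both arrays of sample 4 were low, and the other prefix 5 arrays lay within 10.05 to 10.19, the highest NLRP2 levels of the 11 arrays. In deposited intensity, before background correction, the sample 4 arrays read 125 with dox and 159 without, and the other prefix 5 arrays read between 1073.45 and 1312.06. The smallest gap between the sample 4 arrays and the other prefix 5 arrays was 3.57 on the log2 scale, or 11.8-fold. Both sample 4 levels lay near background. The lowest signal among probes above background was 5.63 on its dox+ array and 5.73 on its dox- array. The size of the gap therefore depends on the background correction. In the authors' normalized values, sample 4 read 6.99 with dox and 7.21 without on the log2 scale. The other prefix 5 arrays read 10.12 to 10.26 there.

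The prefix means of NLRP2 were 8.59 ± 2.11 in prefix 5 (SD, n = 5) and 9.10 ± 0.81 in prefix 1 (SD, n = 6), and the fitted log2 difference was -0.58 ± 0.74 (SE). That direction rested on sample 4: without both of its arrays, an alternative chosen after seeing the data, the log2 difference of NLRP2 was 0.93 ± 0.36 (SE), and without its dox+ or its dox- array alone it was 0.11 or -0.02. The same omission left NLRP7 at 1.60 ± 0.23 (SE). These SDs and SEs treat arrays with the same sample number as independent, although the design text gives both states for each clone. On the sample 4 arrays NLRP7 stood at 7.20 with dox and 7.77 without, where the other prefix 5 arrays lay between 6.92 and 7.66, so NLRP7 was not low in the sample in which NLRP2 was. In the order of the 4 sets by mean, prefix 1 dox+ (9.51 ± 0.34), prefix 5 dox+ (8.81 ± 2.36), prefix 1 dox- (8.70 ± 1.02) and prefix 5 dox- (8.26 ± 2.52), each set overlapped its neighbour (SD, n = 3, 3, 3 and 2).

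The doxycycline comparison asks whether either gene moved with L1TD1. L1TD1 itself (ILMN_1769839) averaged 7.84 ± 0.37 on dox+ arrays (SD, n = 6) and 8.74 ± 0.17 on dox- arrays (SD, n = 5), and its dox+ level was 54.7% of dox- in prefix 5 and 50.6% in prefix 1. Among all kept probes, limma called 0 for dox in prefix 5 (0% of 14338, with 845 at an unadjusted p under 0.05) and 698 in prefix 1 (4.87%). With the sample number as a replicate block the prefix 1 count was 1356. In the fit with no block, the count of 698 became 1 without the dox- array of sample 1 and 3 without its dox+ array. It was 42 and 2 without the dox- and dox+ arrays of sample 3, and 319 and 327 without the dox- arrays of samples 4 and 5. It was 1050 and 1141 without the dox+ arrays of samples 2 and 6.

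The dox difference of NLRP7 differed between its probes. In prefix 1, ILMN_1652366 was higher on all 3 dox+ arrays than on any dox- array, as was the case for 14.2% of kept probes. Its log2 difference was 0.77 ± 0.23 (SE), and it was above background on 2 of 3 dox+ and 0 of 3 dox- arrays. Because a dox+ array was also not above background, no bound on the fold is given and the size is a description only. The other probes differed by -0.02 ± 0.32 (SE, ILMN_1658632) and 0.24 ± 0.21 (SE, ILMN_1798063) on the log2 scale, and neither was above background on more than 1 prefix 1 array. In prefix 5, where all 3 probes were measured on every array, the log2 differences were -0.25 ± 0.26, 0.07 ± 0.36 and 0.03 ± 0.24 (SE), each no larger than its error. With the sample number as a replicate block, that of ILMN_1652366 was -0.45 ± 0.23 (SE) in prefix 5, larger than its error, and 0.77 ± 0.19 (SE) in prefix 1. For ILMN_1652366 the same-numbered samples differed by 0.85, 0.32 and 1.14 in prefix 1 and by -0.57 and -0.34 in prefix 5, dox+ minus dox- on the log2 scale. The dox difference in prefix 5 minus that in prefix 1 was -1.02 ± 0.35 (SE) for this probe, 0.09 ± 0.48 for ILMN_1658632 and -0.205 ± 0.319 for ILMN_1798063.

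NLRP2 differed by 0.54 ± 1.13 (SE) on the log2 scale with dox in prefix 5 and by 0.81 ± 1.01 in prefix 1, both smaller than their errors. With the replicate block it differed by -0.15 ± 0.30 (SE) in prefix 5, again from samples 4 and 5 alone, and by 0.81 ± 0.25 (SE) in prefix 1, where the difference was then larger than its error. In the fit with no block, the prefix 5 value ran between -1.24 without the dox- array of sample 4 and 2.33 without the dox- array of sample 5. By sample number, dox+ minus dox-, NLRP2 differed by 1.39, 0.05 and 1.00 for samples 1, 2 and 3 and by -0.39 and 0.10 for samples 4 and 5. The means of the same-numbered samples spread over 3.81, and over 1.47 without sample 4, close to the largest difference within a number, 1.39.

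**Figure D3:**
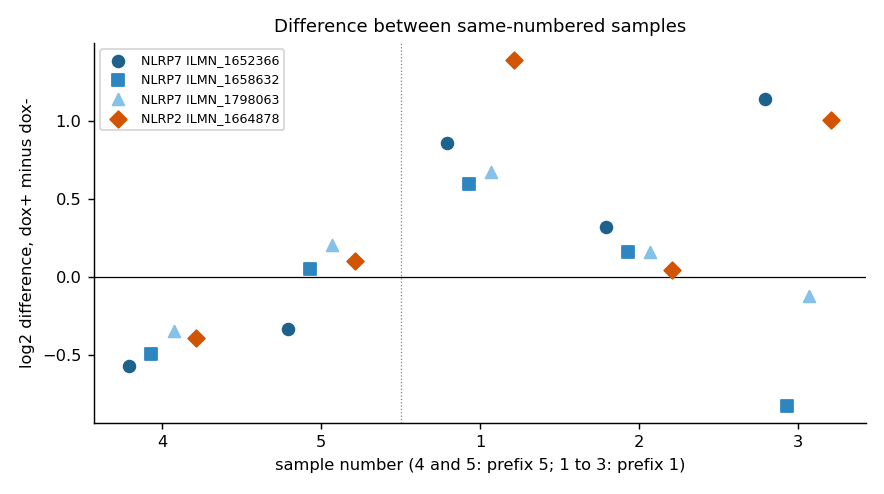
Log2 difference, dox+ minus dox-, of each same-numbered pair of samples for the 4 probes, prefix 5 left of prefix 1. ILMN_1652366 of NLRP7 lies below 0 in both prefix 5 pairs and above 0 in the 3 prefix 1 pairs, and NLRP2 is largest in sample 1 at 1.39.

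The genes most like each member were those with the smallest root mean square distance between centred log2 profiles over the 11 arrays, among 9852 other genes. For NLRP7 (ILMN_1652366) these were SNAR-A1 at 0.39, TMEM125 at 0.43, DNAJA4 at 0.43, ECHDC2 at 0.48 and PADI3 at 0.51, against a median of 1.00 over all genes. SNAR-A1 is a small noncoding RNA with near-identical copies, so its probe is uncertain. DNAJA4 is a J-domain partner of HSP70 chaperones, PADI3 converts arginine to citrulline in proteins, and TMEM125 and ECHDC2 encode a membrane protein and an enoyl-CoA hydratase domain protein. Chosen for their likeness, they are described without a test. DNAJA4 averaged 7.46 ± 0.32 in prefix 5 (SD, n = 5) and 5.24 ± 0.66 in prefix 1 (SD, n = 6), and it was above background on 5 of 5 prefix 5 arrays and on 2 of 6 prefix 1 arrays, the same numbers as NLRP7. TMEM125 averaged 6.53 ± 0.68 in prefix 5 and 4.99 ± 0.38 in prefix 1 and was above background on 5 of 5 and 1 of 6 arrays.

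The profiles nearest to NLRP2 were SOX15 at 1.03, HAND1 at 1.04, IRX4 at 1.06, PER3 at 1.06 and NFKB2 at 1.14, against a median of 1.44 over all genes. The distance grows with the member's own spread, an SD over the 11 arrays of 1.48 for NLRP2 and 1.01 for NLRP7. It therefore cannot compare closeness between the 2 members. SOX15, HAND1 and IRX4 are transcription factors of development, PER3 belongs to the circadian clock, and NFKB2 is a subunit precursor of NF-kappaB. In sample 4, SOX15 measured 6.63 with dox and 6.62 without, and on the other prefix 5 arrays it lay between 7.80 and 7.89, so it was low in the same sample by less than NLRP2.

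**Figure D4:**
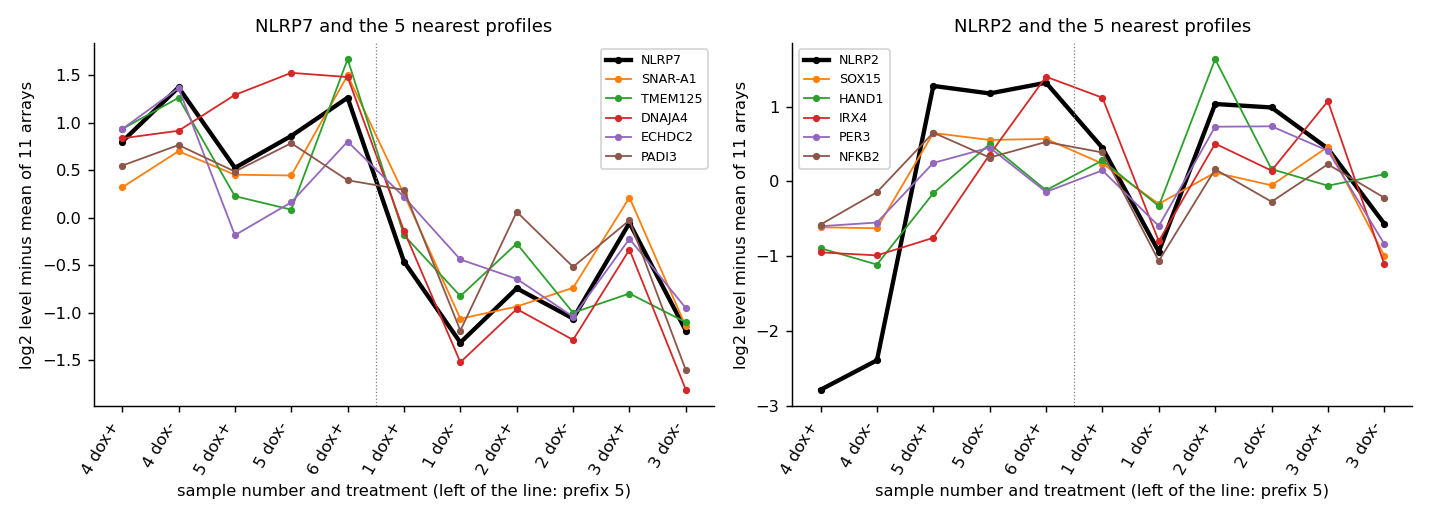
Centred log2 profiles over the 11 arrays, prefix 5 arrays left of prefix 1 arrays, for NLRP7 and NLRP2 with the 5 genes nearest to each. The NLRP7 group steps down between the prefixes, and NLRP2 dips on both sample 4 arrays by more than any of its nearest genes.

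Most of the NLR family was not above background in these cells. Of 20 other NLR genes with a probe, 15 were above background on no array by any probe, and 3 passed the filter, each on all 11 arrays: NLRP8, a paralogue on the same chromosome, NOD1, a sensor of bacterial peptidoglycan, and NLRX1, a mitochondrial member. None of these 3 passed for prefix 5 against prefix 1, where limma called 0.0767% of kept probes (11 of 14338, Benjamini-Hochberg adjusted p under 0.05) and 0 of the 3 had an unadjusted p under 0.05. This and all prefix p-values below come from a fit that treats arrays with the same sample number as independent. The design text gives both states for each clone, so these p-values do not measure the spread between clones. The 11 calls were 4, 6, 5, 19, 5, 3 and 7 in number without the dox- array of sample 1, the dox+ array of sample 1, the dox+ array of sample 2, the dox- array of sample 3, the dox- and dox+ arrays of sample 4 and the dox- array of sample 5, and 6 without the dox- array of sample 2 or the dox+ arrays of samples 3 and 6. NLRP8, the brightest of the 3, averaged 10.04 ± 0.34 in prefix 5 (SD, n = 5) and 9.94 ± 0.57 in prefix 1 (SD, n = 6), with a log2 difference of 0.12 ± 0.25 (SE, adjusted p = 0.902). These values come from 1 of its 2 probes, since the other did not pass the filter. NOD1 differed by 0.17 ± 0.17 (SE, adjusted p = 0.754) and NLRX1 by 0.17 ± 0.15 (SE, adjusted p = 0.694). NLRP12 missed the filter but was above background on 3 of 5 prefix 5 arrays and on 0 of 6 prefix 1 arrays, with an adjusted p of 0.761 when all probes were tested. Of 15 maternal-effect genes with a probe, 12 were above background on no array, NLRP5 and KHDC3L of the subcortical maternal complex among them, and only TRIM28, a co-repressor that protects imprints, passed the filter, at 9.67 ± 0.31 in prefix 5 and 9.33 ± 0.35 in prefix 1 (log2 difference 0.33 ± 0.19 SE, adjusted p = 0.539).

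Early embryo and germ cell genes had 8 of 17 with a probe past the filter. All 8 had a positive log2 difference between 0.15 and 0.80, with a median of 0.35 against 0.0045 over all kept probes, and 0 of 8 passed limma. Over all kept probes 50.8% had a positive difference, and 2 of the 8 had an unadjusted p under 0.05, against 11.4% of kept probes. The list was chosen with earlier results of these data known and its genes share the same arrays, so nothing is read from these shares. The highest difference, 0.80, was that of TCL1B, above background on only 3 prefix 5 and 2 prefix 1 arrays. DPPA4, a chromatin factor of pluripotent cells, was the brightest at 12.88 ± 0.24 in prefix 5 and 12.64 ± 0.12 in prefix 1. ZSCAN10, a pluripotency zinc finger factor, averaged 12.19 ± 0.23 in prefix 5 and 11.47 ± 0.42 in prefix 1 (log2 difference 0.74 ± 0.19 SE, adjusted p = 0.181). PRDM14, a germline and pluripotency regulator, fell by 1.48 ± 0.31 (SE) on the log2 scale with dox in prefix 1 (adjusted p = 0.0267). That call was lost without the dox- or dox+ array of sample 1 (adjusted p = 0.105 and 0.107), the dox- or dox+ array of sample 3 (0.0927 and 0.0994) or both arrays of sample 4 (0.0579).

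The partners through which NLRP proteins form inflammasomes were present in part. Of 19 genes, 9 passed the filter and 8 were above background on no array. PYCARD, the adaptor, had a log2 difference of 0.23 ± 0.19 (SE, adjusted p = 0.674) and was on all 11 arrays. IL18, a cytokine that caspases activate, averaged 11.87 ± 0.25 in prefix 5 and 11.93 ± 0.55 in prefix 1 (adjusted p = 0.931), and CASP1 itself was above background on no array. None of the 9 passed for prefix (0 at an unadjusted p under 0.05), with a median log2 difference of 0.008. With dox in prefix 1, TXNIP, a thioredoxin inhibitor that can bind NLRP3, rose by 2.51 ± 0.40 (SE) on the log2 scale (adjusted p = 0.0143). The call was lost without the dox- array of sample 1 (adjusted p = 0.0549), the dox+ array of sample 1 (0.0605) or the dox+ array of sample 3 (0.0657).

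Imprinted genes, some of which lose their maternal marks in moles from mothers with NLRP7 mutations, had 17 of 22 with a probe past the filter. Of these, 15 had a negative and 2 a positive log2 difference, prefix 5 minus prefix 1, between -0.50 and 0.06 with a median of -0.23, and 0 of 17 passed limma. Over all kept probes 49.2% had a negative difference, and 2 of the 17 had an unadjusted p under 0.05, against 11.4% of kept probes. This list too was chosen with earlier results known, and its genes share the same arrays and in part a locus, so nothing is read from these shares. GNAS, the brightest, averaged 13.79 ± 0.14 in prefix 5 and 13.99 ± 0.22 in prefix 1 (log2 difference -0.23 ± 0.13 SE, adjusted p = 0.519). SNRPN averaged 13.08 ± 0.11 in prefix 5 and 13.03 ± 0.14 in prefix 1 (log2 difference 0.06 ± 0.12 SE, adjusted p = 0.882).

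Few chromosomal neighbours were measured. Of the 10 protein-coding genes on each side, 18 had a named probe, 12 were above background on no array, and 3 passed the filter, all on the NLRP2 side. RDH13, a retinol dehydrogenase, had a log2 difference of 0.04 ± 0.13 (SE, adjusted p = 0.947), TNNT1, a slow muscle troponin, 0.26 ± 0.18 (SE, adjusted p = 0.617), and TMEM86B, a lysoplasmalogenase, -0.18 ± 0.14 (SE, adjusted p = 0.665), and 0 of the 3 had an unadjusted p under 0.05. On the NLRP7 side all 8 genes with a named probe, KIR receptors among them whose probes match near-identical copies, were above background on no array. TNNI3, the cardiac troponin inhibitor, missed the filter with 4 of 5 prefix 5 arrays and 0 of 6 prefix 1 arrays above background. It averaged 5.77 ± 0.46 in prefix 5 and 5.01 ± 0.28 in prefix 1 (log2 difference 0.72 ± 0.18 SE, adjusted p = 0.311 with all probes tested). Not every prefix 5 array was above background, so no bound on the fold is given.

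**Figure D5:**
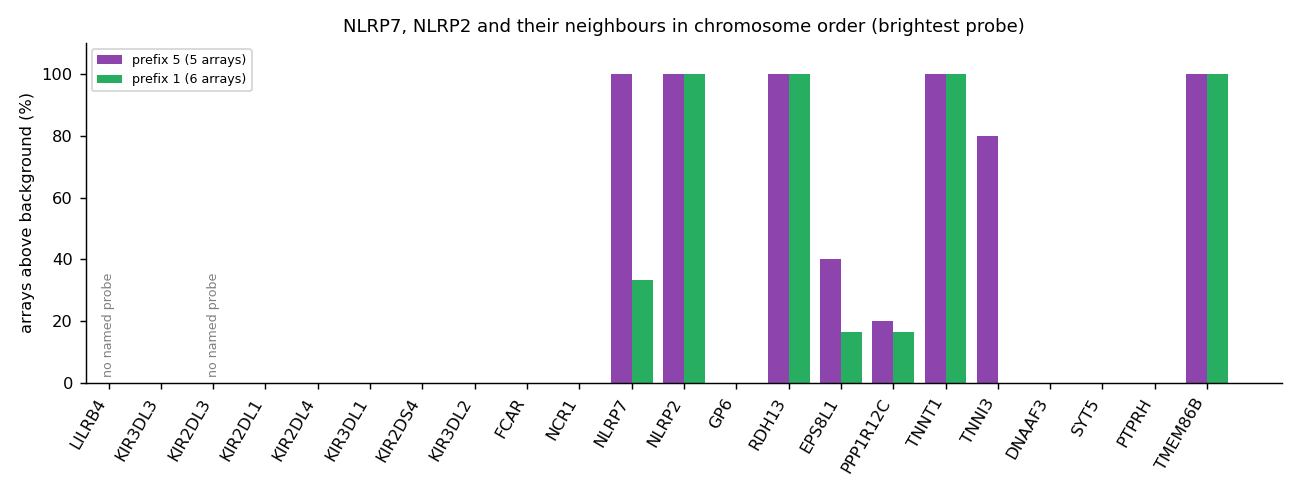
Bars give the percent of arrays above background for the brightest probe of NLRP7, NLRP2 and the protein-coding genes on each side in chromosomal order, prefix 5 (5 arrays) left of prefix 1 (6 arrays). NLRP7 was above background on 5 of 5 and 2 of 6 arrays and TNNI3 on 4 of 5 and 0 of 6, while NLRP2, RDH13, TNNT1 and TMEM86B were on all 11 and the KIR side was empty.

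Markers of undifferentiated cells were present on every array. Of 7 markers of undifferentiated cells with a named probe, POU5F1, SOX2, NANOG, LIN28A, LIN28B, DNMT3B and SALL4, 7 were above background on all 11 arrays and 0 passed for prefix (0 at an unadjusted p under 0.05). Of 7 leukocyte markers with a probe, PTPRC, SPI1, LYZ, CD3E and ITGAM were above background on no array, CD68 was on all 11, and CD14 was on 1 of 5 prefix 5 and 4 of 6 prefix 1 arrays. Their summed linear level, after background correction, ranged between 137 and 163 on prefix 5 arrays and between 113 and 248 on prefix 1 arrays. Of 5 endoderm markers, SOX17, AFP, GATA4 and GATA6 were above background on no array and FOXA2 was on 0 of 5 prefix 5 and 1 of 6 prefix 1 arrays. Of 4 neural markers, NES and GAP43 were above background on all 11 arrays, STMN2 on 4 of 5 prefix 5 and 5 of 6 prefix 1 arrays, and PAX6 on 0 of 5 and 1 of 6. Summed linear levels ranged between 33.6 and 58.7 on prefix 5 arrays and between 34.5 and 87.9 on prefix 1 arrays for the endoderm list, and between 2378 and 2969 on prefix 5 arrays and between 1818 and 3255 on prefix 1 arrays for the neural list. None of the 5 leukocyte and neural markers that passed the filter was called for prefix. Of 8 oocyte and germ cell markers with a probe, 7, DDX4 and DAZL among them, were above background on no array. ZP3 was on all 11, at 11.11 ± 0.36 in prefix 5 and 11.18 ± 0.74 in prefix 1 (SD, n = 5 and 6). The summed linear level of this list ranged between 1539 and 2854 on prefix 5 arrays and between 1042 and 3691 on prefix 1 arrays. NLRP7 is also known to be expressed in trophoblast. Of 12 trophoblast markers, 5 passed the filter and 7, CGA, CGB5, VGLL1, ELF5, PSG1, ERVW-1 and GCM1, were above background on no array. The summed linear level of the 12, after background correction, ranged between 302 and 484 on prefix 5 arrays and between 315 and 1133 on prefix 1 arrays. TFAP2A, a trophoblast and ectoderm factor, averaged 5.76 ± 0.39 in prefix 5 and 7.84 ± 0.76 in prefix 1 (log2 difference -2.12 ± 0.30 SE, adjusted p = 0.0176), opposite in direction to NLRP7. That p-value measures the spread between arrays and not between clones. The TFAP2A call was lost without the dox- array of sample 1 (adjusted p = 0.0676), the dox+ array of sample 1 (0.0505), the dox+ array of sample 4 (0.0754) or both arrays of sample 4 (0.119). With dox in prefix 1, GATA2 (1.40 ± 0.31 SE, adjusted p = 0.0293) and GATA3 (1.34 ± 0.29 SE, adjusted p = 0.0293) rose on the log2 scale, as did ZP3 of the egg coat (1.11 ± 0.29 SE, adjusted p = 0.0487). Without a sample 1 or sample 3 array of prefix 1, the adjusted p was between 0.0916 and 0.105 for GATA2, 0.0943 and 0.101 for GATA3, and 0.119 and 0.145 for ZP3, and the calls of GATA2 and GATA3 were also lost without both arrays of sample 4 (adjusted p = 0.0531 and 0.0649). ZP3 was also lost without the dox+ array of sample 2 (0.0757), either array of sample 4 (0.0705 and 0.0643) or the dox- array of sample 5 (0.0698), without both arrays of sample 4 (0.0937), and with scaling to a common median (0.0668). The part of these markers in the NLRP7 and NLRP2 differences was not tested.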

How the data were processed

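RNA of 11 samples was hybridised to Illumina bead arrays. The deposited table gave, per the file headers, an intensity and a detection p-value per probe and sample, without normalization. A second deposited table held the authors' quantile-normalized intensity values, since its columns share the same sorted values. limma is named in the submitters' processing notes with no version. Starting from the deposited intensities and p-values, background was corrected with neqc (offset 16, detection p) in limma 3.58.1 under R 4.3.3 and arrays were quantile normalized. The filter kept the 14338 of 48803 probes that 5 or more arrays gave a detection p below 0.01. On each array 13301 to 15127 probes were above background, and no array pair was identical. Names came from the platform annotation: 28098 probes had 1 symbol, 13 several and 20692 none. A gene was represented by its brightest kept probe. Promoters came from RefSeq (GRCh38.p14).

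limma (lmFit, eBayes, two-sided, Benjamini-Hochberg over all kept probes, threshold 0.05) fitted prefix with dox as covariate, and dox within each prefix in a model of the 4 sets. These fits treat arrays with the same sample number as independent, so the p-values and counts for prefix do not measure the spread between clones. The members and gene lists were chosen with earlier results of these data known. Genes were named by rule: the 5 nearest profiles to each member, and in each list those past the threshold (at most 4) and the 2 brightest, with NLRP5, KHDC3L, PYCARD and CASP1 always. NLRP12, TCL1B, TNNI3, RDH13, TNNT1, TMEM86B, ZSCAN10 and the remaining markers were chosen for mention with their values known. On simulated data with 200 changed probes, the prefix fit recovered 85% of log2 changes of 1 and 98% of those of 2. The dox fits recovered 46% and 93% in prefix 5 and 57% and 95% in prefix 1. These shares describe the simulated data only. They do not give the share of real changes that the fits missed on these arrays, so a gene that was not called may still differ.

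No label says that a sample number is a clone. The design text gives both states for each clone, and same-numbered deviations correlated between 0.06 and 0.27 within prefix and dox group (2 of 5 over 0.1). The number was used as a block in an alternative only, so the main fits ignore any pairing. For NLRP2 the same-numbered means spread over 3.81, against a largest difference of 1.39 within a number, so its dox errors depend on that choice. The number of arrays limits the precision. Alternatives covered background correction, offset, scaling, filter, array weights, block and each sample left out.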

Additional observations from a re-analysis of the deposited data

Results flagged for a closer look

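NLRP2 on the dox+ arrays had 1 array far from the others. The prefix 5 dox+ array of sample 4 measured 6.09 on the log2 scale and the nearest of the 6 dox+ arrays measured 9.31, so the gap took a share of 0.786 of the whole range. The dox- array of the same sample, at 6.48, was also the lowest of its group.

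HAND1 on the 6 prefix 1 arrays was highest on the dox+ array of sample 2, at 7.63 against 6.28 for the next array, a gap of 0.689 of the range. Of 60 groups examined in this way 2 were flagged, which is no more than the rate of about 1 in 20 that chance alone gives. The groups share arrays, so they are not independent. NLRP2 was chosen with its values known, so both flags are descriptions only.

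NLRP7 with probe ILMN_1652366 was higher with dox in all 3 same-numbered prefix 1 samples and lower with dox in both same-numbered prefix 5 samples. The dox difference in prefix 5 minus that in prefix 1 was -1.023 on the log2 scale; it was not tested, since dox within each prefix was part of the choice of the gene, and its other probes gave 0.09 and -0.205. Sample 6 has no dox- partner.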

How the results depend on the processing

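The direction of the NLRP7 difference between prefix 5 and prefix 1 held under every alternative run, at 1.04 with the authors' normalized values or with no background correction, 1.24 with offset 50, 1.28 with ILMN_1798063 or among dox+ arrays, 2.31 among dox- arrays (no prefix 1 array was above background for ILMN_1798063 or among dox- arrays, where the bounds are at least 1.26-fold and 3.50-fold), and 1.54 to 1.89 with 1 sample left out. With dox in prefix 1, NLRP7 differed by 0.36 with the authors' values or with no background correction, 0.46 with offset 50, -0.0216 with ILMN_1658632, 0.24 with ILMN_1798063, and 0.59 to 0.93 with 1 sample left out. In prefix 5 it was 0.0695 with ILMN_1658632 and -0.51 to 0.0016 with 1 sample left out. NLRP2 ran between -1.21 and 0.11 for prefix, -1.24 and 2.33 for dox in prefix 5, and 0.43 and 1.39 for dox in prefix 1 with 1 sample left out. The cause of these shifts was not tested. NLRP7 has no value among probes detected on all 11 arrays.

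The prefix count was 0 among probes detected on all 11 arrays (1321 at an unadjusted p under 0.05), 110 with array weights, 3 without both sample 4 arrays, and 3 to 19 with 1 sample left out. The dox count in prefix 1 was 292 with no detection filter, 2674 with array weights, 1356 with a fixed and 1510 with a random replicate block, 23 without both sample 4 arrays, and 1 to 1141 with 1 sample left out. In prefix 5 it was 0 to 1. Of 59 measured genes of the lists and neighbours, 5 were called for dox in prefix 1, 11 with the fixed block (adding H19, MEG3, DLK1, SOX2, TFAP2A and GAP43) and 8 with the random block (adding H19, L3MBTL1 and GAP43). Over all 14338 kept probes the same 3 fits called 698 (4.87%), 1356 and 1510. The lists were chosen with earlier results of these data known, so nothing is read from these counts. None of the 5 was lost, and 0 were called in prefix 5 in any of the 3 fits. With the fixed block NLRP7 differed by -0.45 ± 0.23 (SE) and NLRP2 by -0.15 ± 0.30 with dox in prefix 5, from samples 4 and 5 alone, and NLRP2 by 0.81 ± 0.25 in prefix 1. The NLRP8 prefix difference lay between -0.0541 (without the dox- array of sample 3) and 0.3002 with 1 sample left out and was -0.006 without sample 4, and that of RDH13 turned to -0.0096 and -0.0048 without the dox- array of sample 4 or 5 and to -0.0236 without sample 4. With no detection filter, PRDM14, GATA2, GATA3, ZP3 and TFAP2A were no longer called. Scaling to a common median shifted the median of all probes to -0.22 for dox in prefix 1. NLRP7 signals near background limit its prefix 1 levels.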
